A study of Mus musculus with 8 samples.

Results

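The blood monocytes of mice that carried an allogeneic heart, liver or kidney were selected on measured values, by a gate on raw UMI counts in the 3 PBMC libraries (peripheral blood mononuclear cells), where a UMI (unique molecular identifier) marks 1 captured mRNA molecule. A cell was kept if it held at least 500 UMIs with at most 10% of them mitochondrial, at least 3 UMIs in all of Csf1r, Ly6c2, F13a1, Ccr2 and Ms4a6c, under 3 UMIs of the neutrophil genes Csf3r, Cxcr2, Mmp9 and Il1r2, at most 1 UMI of the B cell genes Cd79a and Cd79b, and at most 1 UMI of the T cell genes Cd3d, Cd3e, Cd3g and Trac. The gate held 2880 of the 15737 passing PBMC cells (18.3%), and the whole series held 47541 passing cells in 8 libraries. Cells with at least 1 Ly6c2 UMI are called classical here (2803 cells), and the other 77 are called Ly6c2=0 cells. Many gated cells held no other monocyte gene than Ly6c2, so they are called gated cells below. These values chose the cells, so the levels of the gate's own genes are given as a description with no test.

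Donors were BALB/c mice (H-2d) and recipients were C57BL/6J mice of 8 weeks, given no immunosuppressive drug and killed on day 7 after transplantation. The labels of all samples name male animals of 8 weeks and the strain BALB/c, so the labels and the methods differ for the blood. The recipient's own liver was replaced by the graft, while the heart and the kidneys of recipients of those organs stayed in place. The methods name 2 recipients for each organ, and how their cells were pooled into 1 library is not stated. Cells were captured by Microwell-seq, in which single cells and barcoded beads settle in an agarose microwell array and the 3′ ends of polyA RNA are counted. With 1 library for each graft, no test between grafts was possible, and every interval below is a 95% interval that covers counting error only.

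Monocytes leave the bone marrow, circulate for a short time and enter tissues, where they can become macrophages or dendritic-like cells. In mice, classical monocytes carry high Ly6C, encoded by Ly6c2, and the chemokine receptor CCR2, which they need to leave the marrow, and they are recruited early into inflamed tissue. Nonclassical monocytes carry little Ly6C, depend on the nuclear receptor Nr4a1 and patrol the inner vessel wall. Monocytes also present antigen on MHC class II to CD4 T cells, which is why they are followed in allograft recipients.

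Each PBMC library held 10000 barcodes, with 7522904 UMIs from heart recipients, 6731112 from liver recipients and 3450766 from kidney recipients. The gated cells held 564752, 1843436 and 187546 UMIs, with a median of 780.5, 756 and 677 UMIs per cell, in the order heart, liver and kidney that is kept below. The heart and liver libraries shared 9 gated barcodes, the liver and kidney libraries 1, and the heart and kidney libraries 0. Transcripts of other cells were found in every class: T cells of the same libraries (214, 155 and 252 cells with at least 2 UMIs of the 4 T cell genes and under 3 of the monocyte and of the neutrophil genes) held 4666, 7368 and 757 CPM of Lyz2, the lysozyme of myeloid cells, where CPM is the usual depth-scaled count, a gene's UMIs relative to the summed UMIs of the class. A level in gated cells is therefore given beside that in T cells wherever a result turns on it. Graft-infiltrating leukocytes (TIL), used for 1 comparison, are named by their labels, because Alb, the liver's serum albumin, was at 423 UMIs in T cells of the library labelled heart TIL and at 0 UMIs in those of the library labelled liver TIL.

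Cells of the gate made up 8.13% (7.53 to 8.76) of passing cells in heart recipients' blood, 29.5% (28.4 to 30.6) in liver recipients' and 20.7% (18.4 to 23.2) in kidney recipients', which are 632 of 7772, 2011 of 6822 and 237 of 1143 cells. The 3 intervals do not overlap. The order of heart and kidney rests on the neutrophil limit of the gate. At least 3 UMIs of the monocyte genes were present in 2722, 2949 and 436 cells, and the neutrophil genes alone removed 1628, 662 and 27 of these. Without that limit the shares were 29.1%, 39.2% and 23.1%. T cell genes alone removed 182, 124 and 167 cells, and B cell genes alone 23, 84 and 0.

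**Figure D1:**
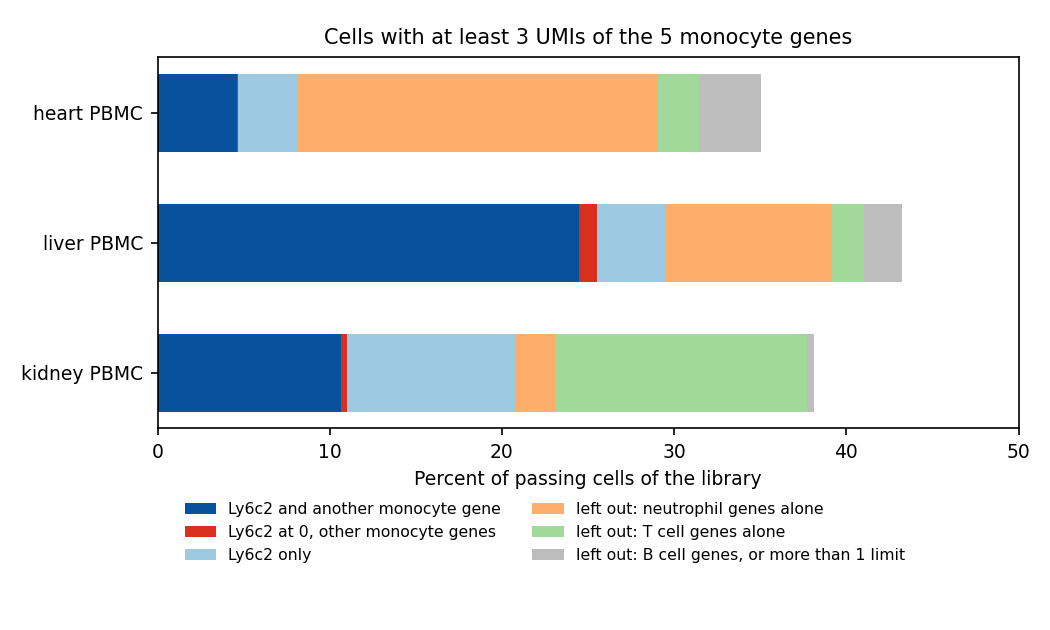
Cells with at least 3 UMIs of the 5 monocyte genes in each PBMC library, as percent of passing cells (x axis), split by whether Ly6c2 was the sole gene of the gate seen, whether Ly6c2 was at 0, and which limit left the cell out. The neutrophil limit takes the longest piece of the heart bar (1628 cells), and cells with Ly6c2 alone take 42.4% of the gated cells in heart, 13.4% in liver and 46.8% in kidney.

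The gate rested mostly on Ly6c2. This gene lies at chr15:75108158-75111970 on the minus strand (GRCm38), and 12.6% of the 50-base windows of its transcript, or 20% of those in its last 500 bases, the end that the assay reads, also occur in Ly6c1, its neighbour in the Ly6 family. Reads within them may align to both genes, and the authors removed reads that aligned to several places. How many reads of Ly6c2 were lost in this way was not measured. Ly6c2 stood at 4795, 3959 and 6287 CPM in gated cells. Ccr2 stood at 296, 849 and 485 CPM, and Ms4a6c, a membrane protein of the Ms4a family, at 715, 1503 and 1120 CPM. Csf1r, the receptor of macrophage colony-stimulating factor, stood at 257, 315 and 213 CPM, and F13a1, a subunit of coagulation factor XIII, at 221, 355 and 80.0 CPM. All but Ly6c2 were thus lower in heart than in liver recipients' cells, whereas Ly6c2 was highest in kidney recipients' cells. Ly6c2 was also plentiful outside the gate, at 2163, 1676 and 1940 CPM, with a UMI in 76.0%, 64.1% and 61.8% of the remaining passing cells.

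Cells just inside the gate were close to those just outside it in the heart and liver libraries. Cells with a monocyte sum of 2 held 9873, 18843 and 2334 CPM of Lyz2, and those with a sum of 3 held 10014, 21002 and 6072 CPM. The step at the gate was visible in kidney recipients' blood, where Chil3 went from 45.5 to 282 CPM and Ms4a6d from 15.2 to 130 CPM. In heart recipients' blood Chil3 went from 4376 to 5140 CPM across the same step.

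Outside the gate's own genes, the genes that separated the gated cells most evenly from the other passing blood cells included known monocyte genes. Ms4a6d, a paralog of Ms4a6c, stood at 228, 584 and 251 CPM, 3.46-, 2.74- and 8.76-fold above the other cells. Ctsc, which encodes the lysosomal protease cathepsin C, stood at 940, 1703 and 656 CPM. Naaa, a lysosomal amidase of lipid signals, stood at 175, 534 and 224 CPM. Ly86, which encodes the MD-1 partner of the receptor RP105, Cd68, a lysosomal glycoprotein, and Clec4a3, a C-type lectin, were also at least 2-fold above the other cells in each library, as were the chemokine Ccl9 and the interferon-induced gene Ifi211. Chil3, a chitinase-like protein of Ly6C-high monocytes, was 2.35-, 2.04- and 15.3-fold above, and Ms4a4c 3.27-, 2.10- and 11-fold. The uncharacterized gene I830127L07Rik stood at 577, 737 and 565 CPM, which is 2.28-, 2.24- and 5.99-fold above. These folds describe how the gate divided each library and are not tests.

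Lyz2 stood at 17278, 28352 and 14866 CPM in the gated cells, and every library's gated cells were above its T cells. Plac8, a small cysteine-rich protein abundant in classical monocytes, stood at 4694, 7798 and 5273 CPM against 2379, 2497 and 535 CPM in T cells. Vcan, the matrix proteoglycan versican, was low at 40.7, 79.2 and 26.7 CPM, yet at 0 UMIs in the T cells of all 3 libraries. S100a8, an alarmin of neutrophils and monocytes, stood at 84857, 38331 and 22197 CPM against 59209, 28773 and 8154 CPM in T cells. How much of the S100a8 came from other cells was not tested.

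**Figure D2:**
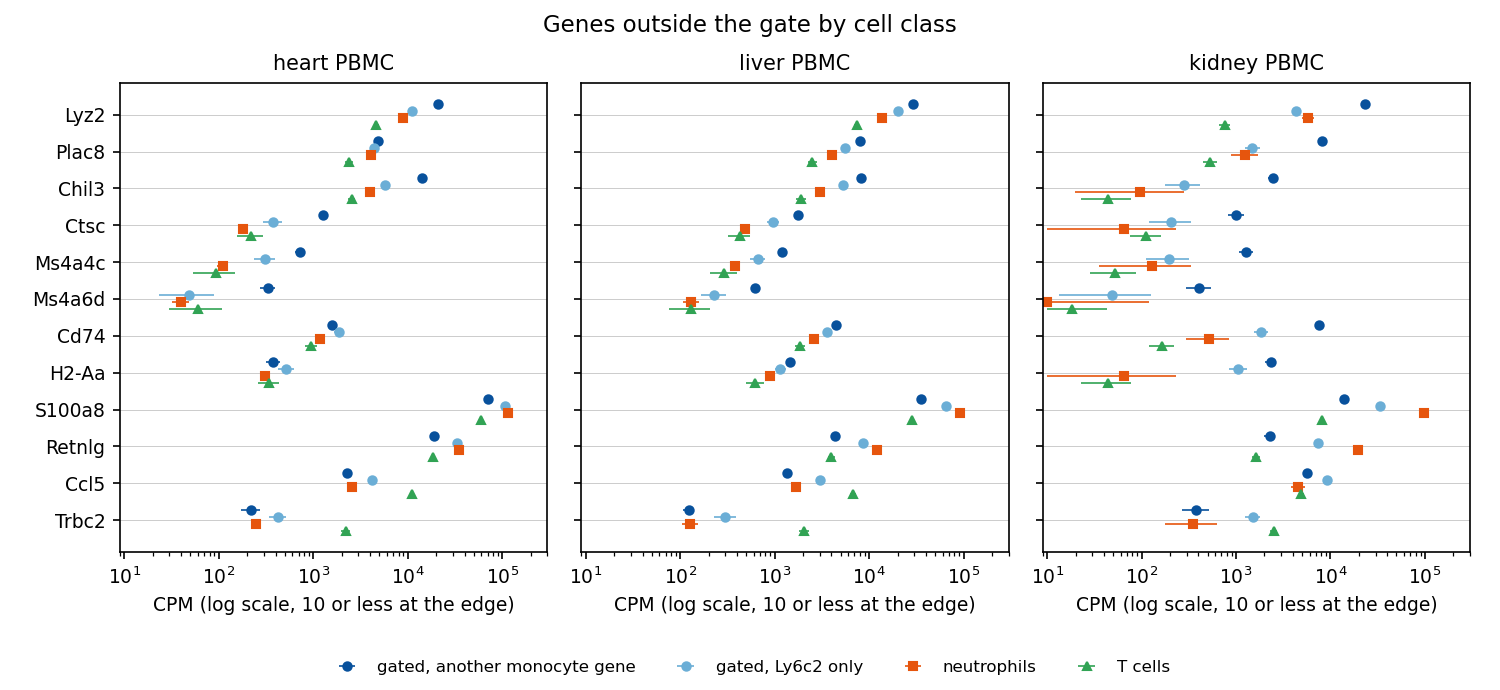
CPM (log scale) of 12 genes in each PBMC library, for gated cells with another monocyte gene beside Ly6c2 or without Ly6c2, gated cells with Ly6c2 alone, neutrophils and T cells, with 95% Poisson intervals. Lyz2, Chil3 and Ms4a6d sit lower in cells with Ly6c2 alone than in the other gated cells of each library, most clearly in kidney, where Trbc2 is higher in them (1511 against 379 CPM).

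The gated cells could be divided by how many genes of the gate supported them. In 268, 270 and 111 cells, Ly6c2 was the sole gene of the 5 with a UMI, which is 42.4% (38.5 to 46.4), 13.4% (12 to 15) and 46.8% (40.3 to 53.4) of the gate. In kidney recipients' blood these cells held 4337 CPM of Lyz2 against 23062 CPM in the remaining gated cells, and 48.7 against 408 CPM of Ms4a6d. They also held more of the T cell receptor gene Trbc2 (1511 against 379 CPM), of Cd8b1, a chain of the CD8 coreceptor (841 against 142 CPM), and of the chemokine Ccl5, made by effector lymphocytes (9136 against 5690 CPM). In the heart library the Ly6c2-only cells held 11019 against 20890 CPM of Lyz2, 108200 against 71386 CPM of S100a8, 33066 against 18846 CPM of Retnlg, a neutrophil gene, and 48.4 against 332 CPM of Ms4a6d. After thinning to 500 UMIs, 1.49% of them had a UMI of Ms4a6d, against 3.27% of T cells and 2.01% of neutrophils of that library (2.99%, 4.67% and 2.98% before thinning). In the liver library the gap was smaller, with 20444 against 29255 CPM of Lyz2. With another monocyte gene required, gated cells made up 4.68%, 25.5% and 11% of passing cells, so the order of the 3 libraries was kept. Other genes put these cells above T cells. After the same thinning, Ctsc was found in 14.9% (10.9 to 19.8) of the Ly6c2-only cells of heart, against 7.94% of T cells and 8.10% of neutrophils (22.8%, 16.8% and 12.2% before thinning). In kidney, Lyz2 was found in 66.7% of them against 29.4% of T cells (76.6% and 49.6% before) and Chil3 in 14.4% against 3.57% (14.4% and 4.76% before). The 46 neutrophils of that library were at 84.8% for Lyz2 and 6.52% for Chil3 after thinning (93.5% and 6.52% before). The markers of the Ly6c2-only cells of heart and kidney recipients were thus mixed, and the name monocyte rests on few genes there. This split was made after the data were seen.

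Marker lists of other cell types were compared in the same way. Without the genes that the gate limits, 16 neutrophil genes summed to 219730, 129924 and 78682 CPM in Ly6c2-only cells and to 139726, 68723 and 30866 CPM in gated cells with another monocyte gene. The 12 NK cell genes summed to 10342 CPM in the Ly6c2-only cells of kidney recipients, to 7510 CPM in the other gated cells and to 6182 CPM in T cells. The 10 T cell genes that the gate did not use summed to 4154, 1062 and 6368 CPM in the same order. The part of these transcripts in the library differences described next was not tested.

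Between 2 PBMC libraries a gene was counted if it was at least 2-fold apart, after adding 10 CPM, with at least 10 UMIs and 100 CPM in the higher library. Of 1494 genes, 106 (7.1%) were higher in gated cells of liver than of heart recipients and 68 (4.55%) lower. Of 1701 genes, 153 (8.99%) were higher in liver than in kidney and 192 (11.3%) lower, and of 1684 genes, 192 (11.4%) were higher in heart than in kidney and 343 (20.4%) lower. With another monocyte gene required, the counts were 81 and 57, 127 and 184, and 185 and 323, in the same order. T cells of the same libraries showed a 2-fold difference in the same direction for 47 of the 106 and 44 of the 68 genes between liver and heart, against 5.69% and 6.56% of all genes tested. They did so for 110 of the 153 and 70 of the 192 genes between liver and kidney, against 16.6% and 6.64%, and for 163 of the 192 and 181 of the 343 between heart and kidney, against 20.8% and 13.8%. After each level was divided by that of the other passing cells of its library, 0 of the 106 and 4 of the 68 were still 2-fold apart. Between liver and kidney 7 of 153 and 21 of 192 remained, and between heart and kidney 8 of 192 and 37 of 343. Other genes passed on this scale, and in all 0 genes were then higher in liver than in heart and 7 lower, 60 higher in liver than in kidney and 217 lower, and 144 higher in heart than in kidney and 225 lower. Most of the genes first counted as 2-fold apart were thus under 2-fold relative to the other cells of their library.

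Genes of MHC class II presentation were lowest in the gated cells of heart recipients. Of the 10 genes on that list, 6 were abundant enough, and all 6 passed the rule of size in liver against heart (median log2 ratio 1.72, against 0.13 over all genes) and in kidney against heart (median log2 ratio of heart over kidney -1.79, against -0.24). By the same rule 7.1% of all genes were higher in liver than in heart and 20.4% higher in kidney than in heart. None of the 6 list genes was 2-fold apart between liver and kidney. Relative to the other passing cells of each library, none of the 6 was 2-fold higher in liver than in heart. The log2 ratio of H2-DMb1, for example, went from 2.16 to 0.12. H2-Aa, the alpha chain of I-A, stood at 425, 1424 and 1770 CPM, and H2-Eb1, the beta chain of I-E, at 312, 1019 and 1168 CPM. Cd74, the invariant chain that guards the peptide groove, stood at 1686, 4350 and 5017 CPM. H2-Ab1 stood at 501, 1861 and 1658 CPM, and H2-DMb1, part of the peptide exchanger H2-DM, at 58.4, 295 and 309 CPM.

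Levels of this list in T cells ran differently in liver and in kidney. The summed list stood at 2004, 4156 and 442 CPM in T cells, against 3164, 9532 and 10371 CPM in the gated cells, so the T cell level was higher in liver than in heart, as the level in gated cells was, whereas in kidney it was the lowest of the 3. In kidney recipients' cells with another monocyte gene the list reached 14793 CPM (14068 to 15546), and in cells with Ly6c2 alone 4690 CPM. The corresponding cells with another monocyte gene held 2910 CPM in heart and 9731 CPM in liver. The 10 B cell genes that the gate did not use summed to 2220, 2401 and 199 CPM in those cells. Ciita, the master regulator of class II genes, was too sparse to be ordered, with 0, 11 and 3 UMIs in the cells with another monocyte gene.

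Promoters of H2-Aa and H2-Eb1 are shown because both genes moved together between the libraries and between the classes described below. They are the 250 bases before and 50 after the start of each gene from RefSeq (GRCm38.p6), at chr17:34287774-34288073 on the minus strand and chr17:34305617-34305916 on the plus strand, and capitals mark the CCAAT sequence on either strand.
H2-Aa: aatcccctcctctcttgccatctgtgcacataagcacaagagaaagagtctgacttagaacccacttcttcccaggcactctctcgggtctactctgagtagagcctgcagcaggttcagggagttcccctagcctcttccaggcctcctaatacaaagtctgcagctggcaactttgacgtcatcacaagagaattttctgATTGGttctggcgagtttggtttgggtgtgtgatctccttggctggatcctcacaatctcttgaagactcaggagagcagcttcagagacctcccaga
H2-Eb1: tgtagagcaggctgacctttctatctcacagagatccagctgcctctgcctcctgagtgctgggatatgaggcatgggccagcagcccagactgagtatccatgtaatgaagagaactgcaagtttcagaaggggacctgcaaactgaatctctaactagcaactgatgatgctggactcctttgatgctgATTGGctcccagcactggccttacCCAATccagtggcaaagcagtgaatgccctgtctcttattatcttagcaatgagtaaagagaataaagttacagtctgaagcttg
Both hold CTGATTGG, the Y box of class II promoters, starting 51 and 62 bases upstream of the start. Promoters of H2-DMa, H2-DMb1 and Cd80, also on the list, do not hold it. CCAAT or ATTGG occurs in 37.4% and CTGATTGG on either strand in 4.10% of 32851 promoters of that length. H2-Ab1 had no entry among these promoters, so its sequence was not searched. A match in these letters is a description and not a measured site.

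The summed level of nonclassical monocyte genes in cells with another monocyte gene was highest in kidney recipients' blood, but single genes ran both ways. In these gated cells with another monocyte gene, 27 of these genes summed to 2011, 3266 and 4286 CPM, against 1184, 1439 and 873 CPM in T cells. Nr4a1, the nuclear receptor that nonclassical monocytes need, stood at 61.4, 47.8 and 256 CPM. It is also an immediate early gene, and the 20 dissociation and stress genes summed to 4683, 5036 and 8914 CPM in the same cells and to 4090, 4826 and 5948 CPM in T cells. Of these, 5 of 12 counted in all gated cells were higher in kidney than in heart and 4 of 11 higher in kidney than in liver, against 20.4% and 11.3% of all genes, and their part in the level of Nr4a1 was not tested. Ace, which encodes the angiotensin-converting enzyme, was at 0, 15.1 and 133 CPM. Gngt2, a G protein subunit of nonclassical monocytes, stood at 324, 722 and 1138 CPM. Cx3cr1, the fractalkine receptor that marks the patrolling subset, was near 0 in all 3 libraries (2.79, 13.3 and 9.48 CPM). Over all gated cells, Fcgr4, an activating Fc receptor, stood at 450, 544 and 347 CPM and Clec4a1, a C-type lectin, at 168, 372 and 123 CPM, both lowest in kidney. Among all gated cells, 4 of the 10 list genes abundant enough were 2-fold higher in kidney than in heart and 0 lower, against 20.4% of all genes higher in kidney. Between liver and kidney, 2 of 11 were higher in kidney, against 11.3% of all genes, and 1 was higher in liver, with a median log2 ratio of liver over kidney of 0.35.

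The summed level of acute phase genes was highest in heart and lowest in kidney, in gated cells as in T cells. The 14 genes summed to 38234, 20551 and 5263 CPM in gated cells and to 18594, 7521 and 1203 CPM in T cells. Of 8 genes counted, 7 were higher in heart than in kidney and 6 higher in liver than in kidney, against 11.4% and 8.99% of all genes, with median log2 ratios of 3.01 and 1.72, against -0.24 and -0.08. Chil3 stood at 11108, 7972 and 1514 CPM, and Saa3, a serum amyloid A protein of macrophages, at 2250, 2300 and 133 CPM. Lcn2, the siderophore-binding lipocalin that neutrophils carry in their granules, stood at 5018, 1292 and 533 CPM. Wfdc21, a secreted whey acidic protein, was 4618, 1294 and 261 CPM. In T cells Chil3 stood at 2548, 1911 and 44.6 CPM, Saa3 at 516, 411 and 3.71 CPM and Lcn2 at 3482, 693 and 175 CPM. Relative to the other cells of each library the order turned for Saa3, from a log2 ratio of 3.98 to -1.78 for heart over kidney and from 4.01 to -1.61 for liver over kidney. Chil3 was likewise furthest above the other cells in kidney, at 15.3-fold. The other cells held 1095, 998 and 10.5 CPM of Saa3 and 4711, 3903 and 89.5 CPM of Chil3. Their makeup also differed, with 3088, 1133 and 46 neutrophils, and its part in these ratios was not tested.

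The 22 type I interferon genes summed to 9020, 7757 and 8083 CPM. Of 15 counted between liver and heart 1 was 2-fold higher in liver and 1 in heart, of 13 between liver and kidney 1 in each, and of 16 between heart and kidney 4 were higher in heart and 1 in kidney, against 11.4% and 20.4% of all genes. On the list of interferon gamma targets, 0 of 15 were higher in heart and 4 in kidney between these libraries. Between liver and kidney 1 of 16 was higher in liver and 3 in kidney, against 8.99% and 11.3% of all genes, and between liver and heart 3 of 15 were higher in liver and 1 in heart, against 7.1% and 4.55%. Isg15, a ubiquitin-like protein, stood at 660, 481 and 571 CPM and Irf7, which amplifies the response, at 600, 330 and 363 CPM. Ifit3 was at 646, 279 and 315 CPM. The chemokine Cxcl9, which interferon gamma induces, differed more, with 5.31, 39.6 and 171 CPM in gated cells against 0, 7.61 and 3.71 CPM in T cells. Cxcl9 was among the 8 genes with the largest ratio of kidney over heart, together with Cdkn1a, the p21 inhibitor of the cell cycle, at 14.2, 32 and 315 CPM against 0, 0 and 40.8 CPM in T cells. Osm, the cytokine oncostatin M, stood at 17.7, 10.8 and 197 CPM in gated cells and at 27.2, 22.8 and 26.0 CPM in T cells, but reached 451 CPM in the 46 neutrophils of the kidney library.

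The genes with the largest ratios included genes of other cells. Hemoglobin genes led liver over heart, with Hbb-bs at 83.2, 5835 and 2549 CPM, and T cells carried the same order. Ngp and Camp, granule proteins of neutrophil precursors, led heart over liver at 606 against 33.1 CPM and 303 against 23.3 CPM. Igha, the heavy chain of IgA, followed at 367 against 36.9 CPM. Cell cycle genes were higher in kidney by the rule of size, with all 12 counted higher than in liver and 10 of 12 higher than in heart, against 11.3% and 20.4% of all genes. Their list summed to 2797 CPM in the kidney cells with another monocyte gene, to 5287 CPM in those with Ly6c2 alone and to 8826 CPM in T cells. Tmem176b, a membrane protein of myeloid cells, stood at 15.9, 212 and 26.7 CPM, against 0, 30.4 and 7.43 CPM in T cells. Apoe, the lipid carrier of macrophages, stood at 290, 574 and 21.3 CPM, against 158, 297 and 11.1 CPM.

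**Figure D3:**
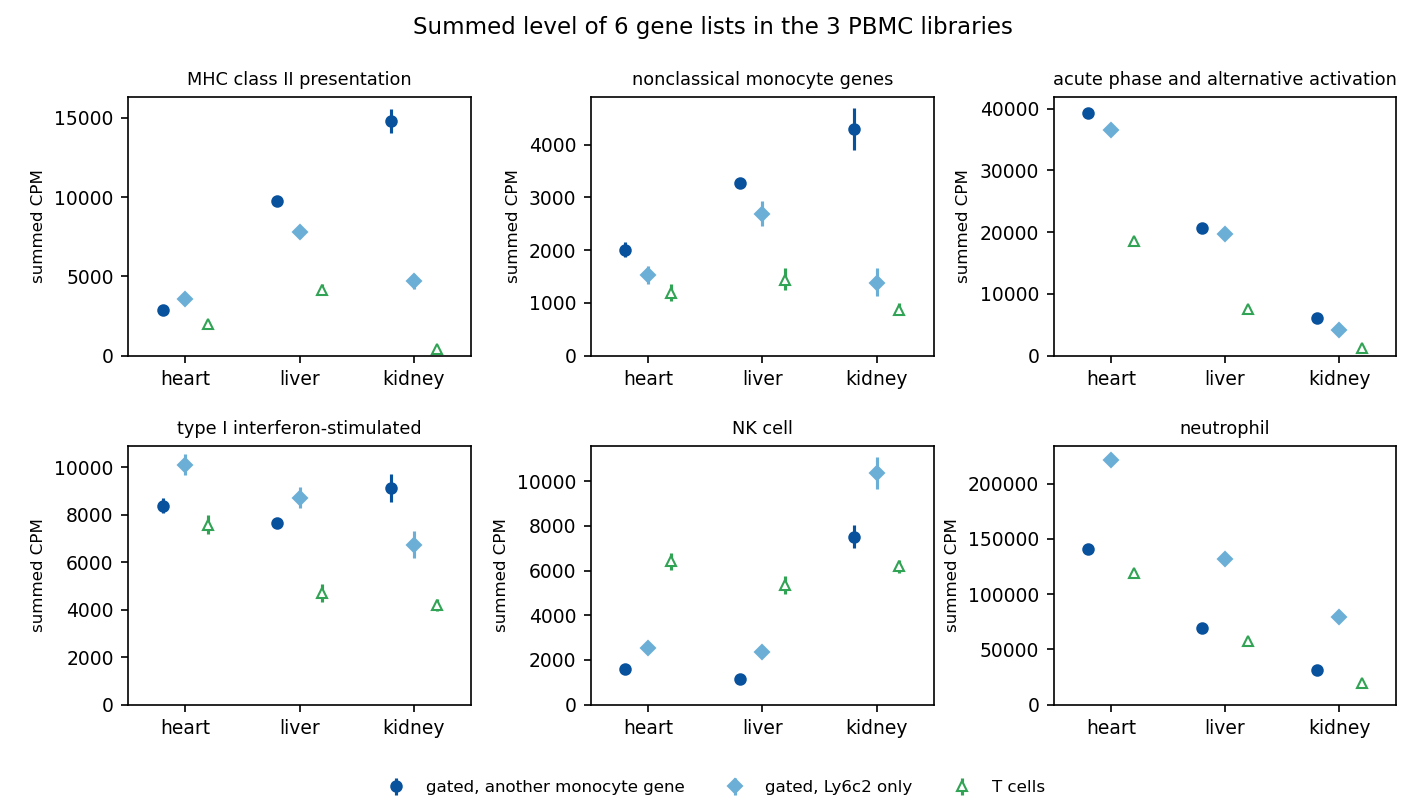
Summed CPM (y axis, from 0) of 6 gene lists in the 3 PBMC libraries, for gated cells with another monocyte gene, gated cells with Ly6c2 alone and T cells, with 95% Poisson intervals. MHC class II is at 2910 CPM in heart and 14793 CPM in kidney in the first class while T cells are at 442 CPM in kidney, and acute phase and neutrophil genes are highest in heart and lowest in kidney in all 3 classes.

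Ly6c2=0 cells were rare in blood. They numbered 3, 70 and 4, which is 0.475% (0.0980 to 1.38), 3.48% (2.72 to 4.38) and 1.69% (0.462 to 4.26) of the gate. A cell without Ly6c2 needs 3 UMIs of the other 4 genes to enter, so the matched denominator is the 109, 782 and 59 cells that have them, of which 2.75%, 8.95% (7.04 to 11.2) and 6.78% lacked Ly6c2. Under the same rule 42.9% lacked Ly6c2 in the library labelled heart TIL, 43.9% in the library labelled liver TIL and 20.5% (9 of 44) in kidney TIL. The blood cells with these genes thus nearly all carried Ly6c2, and the lower shares in blood stand beside Ly6c2 at 2163, 1676 and 1940 CPM in the cells outside the gate, against 1005, 941 and 1844 CPM in TIL.

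In liver recipients' blood the 70 Ly6c2=0 cells (63639 UMIs) were set against the 712 classical cells with at least 3 UMIs of the other 4 genes (863610 UMIs). By the same rule of size, 36 of 1388 genes (2.59%) were higher and 57 (4.11%) lower in the Ly6c2=0 cells. Genes of MHC class II presentation were higher, at 4 of 6 members past 2-fold. H2-Eb1 stood at 2719 against 867 CPM (log2 ratio 1.64), H2-Aa at 3677 against 1314 CPM (1.48), H2-Ab1 at 4258 against 1752 CPM (1.28) and Cd74 at 9601 against 4062 CPM (1.24). The whole list summed to 21748 CPM (20617 to 22924) against 8998 CPM (8799 to 9201). The promoters of H2-Aa and H2-Eb1 are those printed above.

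The difference was uneven among cells. Ly6c2=0 cells held from 0 to 115 UMIs of the list with a median of 7, and classical cells from 0 to 161 with a median of 5. At least 20 UMIs were present in 23 of 70 cells (32.9%) and 112 of 712 (15.7%). The 12 B cell genes summed to 1964 CPM (1635 to 2340) against 1429 CPM (1350 to 1511). Without cells that held a UMI of 6 B cell genes, the class II list stood at 22099 CPM in 50 Ly6c2=0 cells and at 9062 CPM in 543 classical cells, a ratio as large as before.

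In the same cells Clec4n, the C-type lectin dectin-2, stood at 299 against 66.0 CPM and Ly6a, the Sca-1 antigen, at 1351 against 528 CPM. Adgre4, a receptor of nonclassical monocytes, was at 126 against 22 CPM on 8 UMIs. Of 8 nonclassical genes counted, 1 was 2-fold higher in Ly6c2=0 cells and 0 lower, against 2.59% and 4.11% of all genes. Their median log2 ratio was 0.54, against -0.06 over all genes. The best counted were Gngt2, at 1383 against 775 CPM (log2 ratio 0.83, 0.50 to 1.16), and Fcgr4, at 817 against 472 CPM (0.78, 0.35 to 1.21). Fcgr4 was also found in more neutrophils than gated cells of this library, as given above. Cx3cr1, at 31.4 against 13.9 CPM on 2 UMIs, and Nr4a1, at 62.9 against 48.6 CPM on 4, were too sparse to be ordered. The uncharacterized gene I830127L07Rik stood at 393 against 962 CPM (log2 ratio -1.27) and Chil3 at 5453 against 10194 CPM (-0.90). Lyz2, at 24105 against 33879 CPM, and Plac8, at 9350 against 9098 CPM, were within 2-fold. Prtn3, the protease of early myeloid precursors, was at 47.1 against 145 CPM on 3 UMIs. Trem2, a lipid receptor of macrophages, was at 0 UMIs against 77.

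**Figure D4:**
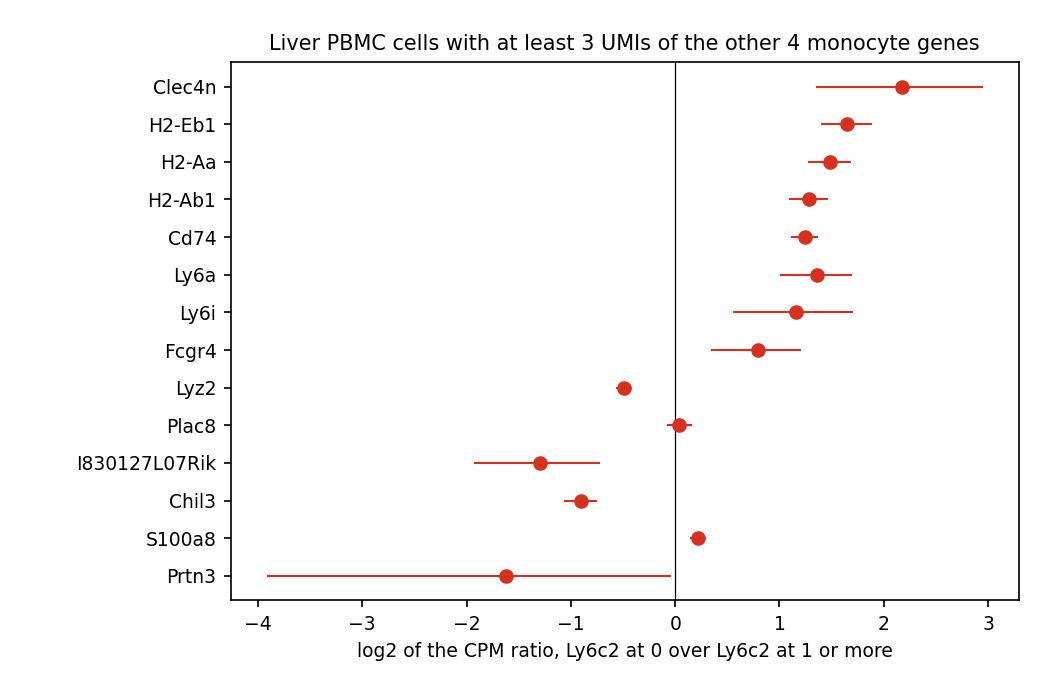
Log2 of the CPM ratio (x axis) between Ly6c2=0 and classical cells of liver recipients' blood that hold at least 3 UMIs of the other 4 monocyte genes, with 95% counting intervals and no pseudocount. Clec4n, the 4 class II genes, Ly6a and Ly6i lie above 0, and I830127L07Rik, Chil3 and Prtn3 below it.

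Over the 3 libraries, sums of Ly6c2=0 and of all classical cells were compared by edgeR's quasi-likelihood test with the library as a block. At an adjusted p under 0.05, 1 of 2441 genes was higher in Ly6c2=0 cells (0.041%) and 0 lower (0%), with 103 genes at an unadjusted p under 0.05. DESeq2 called 0 in either direction, with 40 at an unadjusted p under 0.05. The gene called by edgeR was C1qc, a chain of complement C1q made by macrophages (log2 fold change 3.26, edgeR adjusted p = 0.000187). It rests mostly on 10 UMIs in 1 cell of heart recipients' blood, and without that library edgeR called 0 genes, with 34 at an unadjusted p under 0.05. The libraries of heart and kidney held 3 and 4 Ly6c2=0 cells. In simulated data of this size the test found 0% of the genes altered by a log2 of 1 and 2.41% of those altered by 2, so a low count says little.

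With the classical cells matched to those with 3 UMIs of the other 4 genes, a comparison added after the data were seen, 3 genes passed in edgeR, and they are named because they are so few. H2-Aa was higher in Ly6c2=0 cells, at 2870, 3677 and 4055 CPM against 189, 1314 and 2385 CPM (log2 fold change 1.54, edgeR adjusted p = 0.00975). Chil3 was lower, at 2392, 5453 and 0 CPM against 20775, 10194 and 3489 CPM (log2 fold change -2.14, edgeR adjusted p = 0.000215). I830127L07Rik, which passed the filter on low counts only through the classical cells, where it is high, was lower at 0, 393 and 0 CPM against 1120, 962 and 729 CPM (log2 fold change -1.70, edgeR adjusted p = 0.0398). The Ly6c2=0 cells held 12, 234 and 10 UMIs of H2-Aa, 10, 347 and 0 of Chil3 and 0, 25 and 0 of I830127L07Rik. Chil3 thus also needed the classical cells, where it is high, to pass the filter on low counts. In heart recipients' blood 39 of the 41 UMIs of 4 class II genes lay in 1 of the 3 cells. Each of the 3 calls was lost when 1 library was left out, although no direction turned. Chil3 did not pass without heart (log2 fold change -1.22, edgeR adjusted p = 0.0594). H2-Aa did not pass without liver (1.90, edgeR adjusted p = 0.0848), where 62 genes could be tested, and passed without heart (1.22, edgeR adjusted p = 0.00437). I830127L07Rik did not pass without kidney (-1.60, edgeR adjusted p = 0.0974) and was too low to be tested without liver.

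The last comparison asked how gated cells of the blood differ from cells of the same gate in the graft. Summed UMIs of the 3 PBMC libraries were tested against those of the 3 TIL libraries (1172, 1384 and 270 cells by their labels) with edgeR's quasi-likelihood test. Of 6455 genes, 101 (1.56%) were higher in PBMC and 50 (0.775%) higher in TIL at an adjusted p under 0.05. With the organ as a block the counts were 474 and 319, and 352 and 195 with the heart and liver labels of TIL exchanged. The p-values measure the spread between libraries, and the median log2 fold change over all genes was -0.01. Without liver PBMC, edgeR called 0 genes in either direction, with 560 at an unadjusted p under 0.05. It called 9 and 12 genes, in the same order, without heart PBMC, 2 and 6 without the library labelled heart TIL, and 1 and 6 without that labelled liver TIL. In T cells of the same libraries, 82 of the 101 genes and 44 of the 50 were at least 2-fold apart in the same direction. The share of all 6455 genes that far apart in T cells is not given here, so these counts stand without a background. Most called genes thus differed in the same direction in T cells, which is a description only, since it lacks that background.

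Some macrophage and chemokine genes were higher in TIL, where 0.775% of all genes were called. C1qb, a chain of complement C1q, stood at 72.6, 84.6 and 37.3 CPM in PBMC and 3506, 4261 and 1269 CPM in TIL (log2 fold change -5.28, edgeR adjusted p = 0.00787), and T cells of TIL held 1886, 2061 and 320 CPM. Of 16 macrophage genes tested, 5 were called higher in TIL and 0 in PBMC, namely C1qa, C1qb, C1qc, Spp1, which encodes osteopontin, and Ms4a7, with a median log2 fold change of -2.36 over the list. Of 12 chemokines, 5 were called higher in TIL, namely Ccl2, Ccl8, Ccl12, Cxcl9 and Cxcl16, with a median of -3.35. Ccl8, a ligand of CCR2 and other receptors, was at 1.77, 0 and 5.33 CPM in PBMC and at 216, 2444 and 1139 CPM in TIL. Ccl8 and Ccl12 had under 10 UMIs in every PBMC library, as had 15 of the 50 genes called higher in TIL, so they entered the test only through TIL, where they are high. C1qa, C1qb, C1qc, Spp1, Ms4a7, Cxcl9 and Cxcl16 did not reach 10 UMIs in all 3 PBMC libraries, so they too needed TIL to pass the filter. Cd86, the costimulatory ligand, was the 1 gene called of 8 of the class II list, while H2-Aa did not pass, at 425, 1424 and 1770 against 3114, 5361 and 3526 CPM (log2 fold change -1.62), though it passed with the organ as a block (-1.74). Whether C1qa, C1qb, C1qc, Ccl8 and Ccl12 differed more or less than in T cells could not be told, since T cells of PBMC held 0 to 3 UMIs of each per library, and none passed after the T cell difference described below was subtracted (edgeR adjusted p from 0.0769 for C1qb to 0.897 for Ccl12).

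Some classical monocyte and neutrophil genes were higher in PBMC, where 1.56% of all genes were called. Of 25 classical monocyte genes, 5 were called higher in PBMC and 0 in TIL, among them Gda, Ifitm6, S100a6 and Mmp8, with a median log2 fold change of 1.22 over the list. Mmp8 stood at 2553, 891 and 405 against 120, 65.6 and 10.8 CPM. In T cells it stood at 1505, 464 and 85.4 against 57.5, 30.8 and 0 CPM, so T cells shared its difference. Ifitm6, an interferon-induced membrane protein of monocytes, stood at 997, 1069 and 528 against 179, 94.4 and 48.6 CPM (log2 fold change 3.18, edgeR adjusted p = 0.0245). Selplg, the selectin ligand PSGL-1, stood at 855, 642 and 661 against 206, 293 and 238 CPM. Of 21 type I interferon genes, 3 were called higher in PBMC, which were Ifit3, Rsad2 and Oasl2, with a median of 0.99. Ifit3, an inhibitor of viral translation, stood at 646, 279 and 315 against 73.9, 69.9 and 37.8 CPM, with 462, 122 and 160 against 55.7, 61.6 and 14.5 CPM in T cells. Of 13 neutrophil genes, 5 were called higher in PBMC, with a median of 4.56. Ly6g, 1 of these 5, had under 10 UMIs in every TIL library, as had 5 of the 101 genes called higher in PBMC. It thus entered the test only through PBMC, where it is high. Ifitm6, Ifit3, Mmp8 and Retnlg did not reach 10 UMIs in all 3 TIL libraries, so they too needed PBMC to pass the filter. Retnlg, a resistin-like neutrophil gene, stood at 24049, 4838 and 4522 against 381, 166 and 10.8 CPM, with 18344, 3989 and 1615 CPM in T cells of PBMC.

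With the T cell difference subtracted in 1 model, an alternative added after the data were seen, 8675 genes were tested, of which 50 were further toward PBMC in gated cells than in T cells and 12 further toward TIL. The 50 held monocyte genes, but also neutrophil genes (Retnlg, Ngp and Camp), immunoglobulin genes (Igkc, Igha and Ighd) and Aif1, a gene of macrophages that was called higher in TIL before the subtraction. Lyz2 stood at 17278, 28352 and 14866 CPM in PBMC and 17662, 12721 and 11457 CPM in TIL, against 4666, 7368 and 757 and 7633, 5698 and 2335 CPM in T cells (difference of log2 fold changes 1.27, edgeR adjusted p = 0.0150). The difference was 1.25 for Chil3, 1.02 for Plac8, 1.40 for Ms4a4c, 1.95 for Cd68 and 1.84 for Clec4a3, whose plain log2 fold changes of PBMC over TIL were 1.83, 1.22, 0.58, -0.51 and 0.83 in the same order. That of Lyz2 was 0.72. Neither Lyz2 nor any of these genes passed in the plain comparison (edgeR adjusted p from 0.229 for Plac8 to 0.578 for Cd68). Vcan was at 40.7, 79.2 and 26.7 CPM in PBMC and 4.15, 15.1 and 0 CPM in TIL, and at 0 in T cells of all 3 PBMC libraries. The 12 genes further toward TIL held T cell genes, among them Trbc2 (-1.17), Gzmk, a granzyme (-1.54), and Cxcr3, the receptor of CXCL9 (-1.59).

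**Figure D5:**
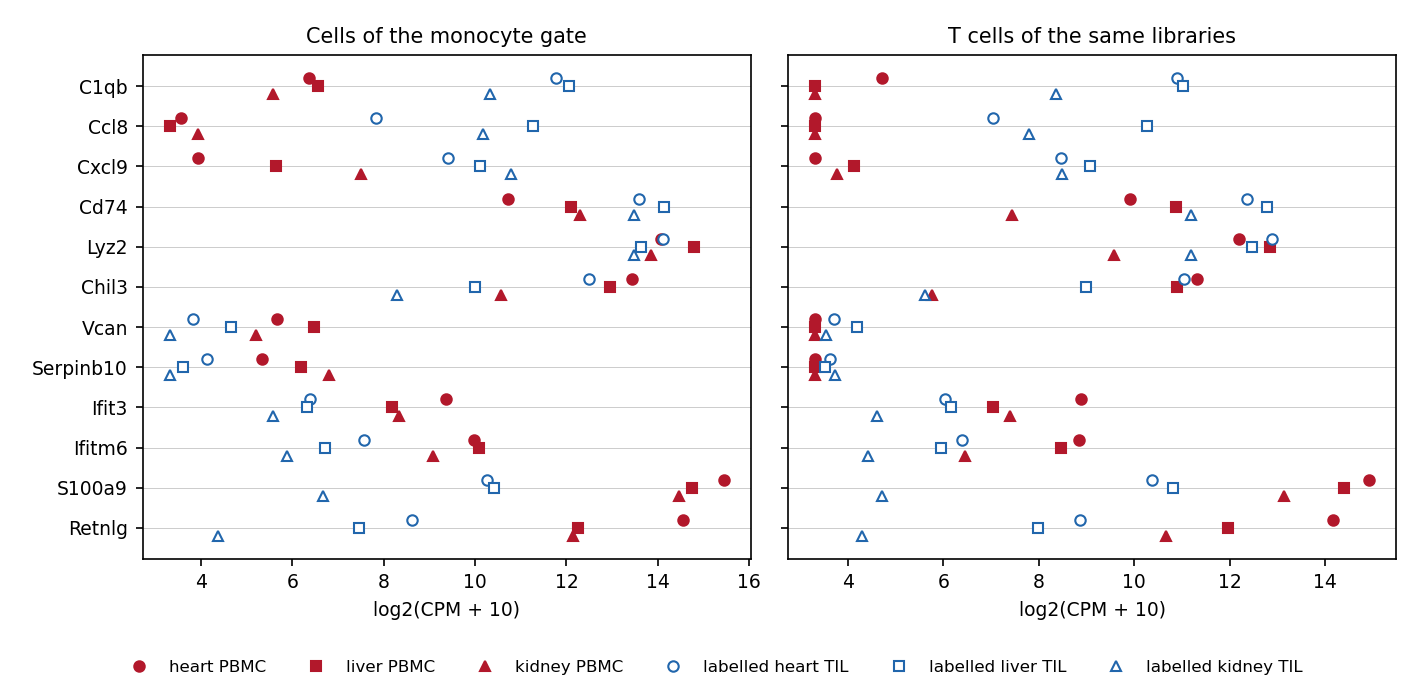
Log2 of CPM + 10 (x axis) of 12 genes in the 3 PBMC libraries (filled) and the 3 TIL libraries by their labels (open), for cells of the monocyte gate and for T cells of the same libraries. C1qb, Ccl8, S100a9 and Retnlg are apart by compartment in both panels, while Vcan stands above 0 in gated cells of PBMC and at 0 in T cells of PBMC.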

How the data were processed

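The authors captured cells by Microwell-seq, processed reads with the Drop-seq core tools, aligned them with STAR to GRCm38, removed reads that aligned to several places, tagged genes by GENCODE (release not given in the sources used here), and collapsed UMIs within a gene at an edit distance of 1. The submitters' processing notes name STAR, bcl2fastq and GRCm38. The deposited tables hold unnormalized UMI counts (genes by barcodes) for 8 libraries of 10000 barcodes, 1 per condition. Strand use in counting is not given in the sources used here.

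The study's own cell filter (500 or more UMIs, mitochondrial share up to 10%) was applied first, and the gate then used raw counts. No doublet caller was run, and the limits on neutrophil, B cell and T cell genes were the sole step against doublets. UMIs were summed per library and class and given as CPM of those cells, with exact Poisson intervals, and shares have exact binomial (Clopper-Pearson) intervals at 95%. Gene ratios between libraries used a pseudocount of 10 CPM. The tested comparisons used edgeR 4.0.16 (R 4.3.3) with TMM factors and Benjamini-Hochberg adjustment over all genes with at least 10 UMIs in at least 3 sums, with the 15 gate genes kept out of the calls, and DESeq2 1.42.0 as an alternative. Thinning to 500 UMIs used seed 0. The steps were tested on simulated data with 200 changed genes. These were negative binomial counts at a fixed dispersion not fitted to the libraries, so recovery in the real data may be lower. For PBMC against TIL, the test found 10.5% of genes altered by a log2 of 1 and 82.1% of those altered by 2, with 3 false calls among 6645 genes.

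The genes named are the genes of the gate, members of hand-written lists described in the report, up to 12 called genes per direction with the largest change and the same direction in every library, the 8 genes with the largest ratio per pair of libraries and direction, and the 20 that best separated the gated cells in all 3 libraries. Members and lists were chosen with earlier results of these data known. The matched classical cells, the split by Ly6c2 alone and the subtraction of T cells were chosen after seeing the data. Promoters came from RefSeq (GRCm38.p6). Cells of the parenchymal libraries entered 1 alternative, and bulk RNA was not analysed here. Other steps ran in Python 3.11.15 (numpy 2.4.6, scipy 1.17.1, pandas 2.3.3 and matplotlib 3.10.9). 1 gene of the lists is not reported here.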

Additional observations from a re-analysis of the deposited data

Results flagged for a closer look

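Barcodes under 500 UMIs, which no comparison used, also met the monocyte gate, a signal in barcodes outside every comparison. They were 103 of 2228 such barcodes (4.62%, 3.79 to 5.58) in heart recipients' blood, 364 of 3178 (11.5%, 10.4 to 12.6) in liver recipients' and 636 of 8857 (7.18%, 6.65 to 7.74) in kidney recipients', with medians of 438, 435.5 and 282 UMIs. In kidney recipients' blood they outnumbered the 237 cells of the gate. Ly6c2 was their sole monocyte gene in 60.2%, 23.4% and 74.7%, and they held 12111, 24845 and 7073 CPM of Lyz2 and 2669, 1755 and 6682 CPM of Ccl5.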

How the results depend on the processing

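Depth and 1 library per graft limit these results: the median gated cell held 677 to 780.5 UMIs, 1 UMI of Ly6c2 decides the class of a cell, and no value between grafts has an error beyond counting. The causes of the changes below were not tested.

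Shares of gated cells in heart, liver and kidney recipients' blood were 8.86%, 50.7% and 14.0% at 1000 UMIs per cell, 3.27%, 15.3% and 10.8% with a monocyte sum of at least 5, 4.68%, 25.5% and 11% with another monocyte gene required, and 29.1%, 39.2% and 23.1% without the neutrophil limit. Thinned to 500 UMIs, heart and liver were 9.34% and 23.7%. Liver was highest under each of these settings, and kidney was below heart in the one without the neutrophil limit. Ly6c2=0 shares were 2.75%, 8.95% and 6.78% over cells with 3 UMIs of the other 4 genes. In liver they were 5.31% when thinned and 1.92% with a sum of at least 5, and in kidney 0 of 40 at 1000 UMIs and 0 of 124 with a sum of at least 5, which allow up to 8.81% and 2.93%.

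Calls higher in Ly6c2=0 cells were 0 by DESeq2, 5 at 1000 UMIs, 3 with no filter, 2 with no library block, 0 when thinned and 0 to 0 leaving out each library. Calls lower in them were 3 with DESeq2 size factors, 3 at 1000 UMIs, 6 with no filter, 3 with no library block, 2 with matched classical cells and 0 to 1 leaving out each library. With matched classical cells, leaving out each library gave 1 to 5 higher and 1 to 3 lower. Without the liver library 62 genes could be tested.

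Calls higher in PBMC and in TIL were 203 and 101 by DESeq2, 418 and 453 with no filter on low counts, 286 and 230 with the parenchymal libraries added to TIL, and 50 and 12 after subtracting T cells. With another monocyte gene required they were 147 and 84. Leaving out each library gave 0 to 144 higher in PBMC and 0 to 62 higher in TIL. The lowest counts, 0 and 0, came without liver PBMC, followed by 1 and 6 without the library labelled liver TIL, 2 and 6 without that labelled heart TIL and 9 and 12 without heart PBMC. The replicate number, 1 in every group, pairs no samples, but blood and graft came from recipients of the same organ, and with the organ as a block the counts were 474 and 319, and 352 and 195 with the heart and liver labels of TIL exchanged.

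Divided by the other cells, 0 genes were higher in liver than in heart and 7 lower, 60 higher in liver than in kidney and 217 lower, and 144 higher in heart than in kidney and 225 lower. Of 766 values of 53 named genes under the alternatives, 570 kept direction and call, 141 lost and 38 gained the call, and 17 changed sign, all after subtracting T cells. Of these, Aif1, Cd68, Cxcl9, Fcgr1 and Saa3 passed there in edgeR. T cells of PBMC held at most 3 UMIs per library of all but Aif1, Cd68, Fcgr1 and Saa3, so the sign is no measured direction for the rest. The differences became 3.36 for Ccl8, 0.74 for Ubd, 1.23 for C1qa, 2.88 for Ccl12, 2.69 for C1qc, 2.41 for C1qb, 0.90 for Gbp2b, 0.29 for Cxcl16, 0.58 for Spp1, 0.61 for Ms4a7, 2.04 for Aif1, 1.22 for Ccl2, 1.95 for Cd68, 0.15 for Cd86, 3.21 for Cxcl9, 2.17 for Fcgr1 and 1.41 for Saa3.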
